A study of Mus musculus with 7 samples.

Results

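Most of the genes described here encode the core of the spliceosome and the SR proteins. They were measured in megakaryocytes (MKs), the bone marrow cells that release platelets. They were found by name. A gene was included when the single symbol listed for its array probe began with Sf3a, Sf3b, Prpf, Snrp, Srsf or Lsm, and pseudogenes were left out. This gave 53 of the 19057 named genes on the array: 3 Sf3a, 6 Sf3b, 12 Prpf, 9 Snrp, 10 Srsf and 13 Lsm genes. The name rule also takes in Lsm genes with other roles, such as Lsm1, Lsm10 and Lsmem1. These are counted with the splicing genes below. Male C57BL/6J mice of 10 to 12 weeks received 5-HT (serotonin) or saline from an implanted pump for 24 h. The 5-HT pumps were filled at 25.8 mM and delivered 1.66 µg/kg/h. Marrow of 3 to 4 mice was pooled for each sample, MKs were taken with an antibody to CD41 (platelet glycoprotein IIb), and total RNA was hybridized to Illumina mouse BeadChips, with 4 5-HT samples and 3 saline samples in all. By the study's methods a further saline sample was removed as an outlier, and it is not analysed here. Nothing in the labels says whether samples of a group were prepared on separate days, so the p-values measure only the spread between these pools.

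Most protein-coding transcripts are cut and rejoined by the spliceosome, which is built anew on each intron from small nuclear ribonucleoproteins (snRNPs) and many further proteins. The Sm proteins, most of them encoded by Snrp genes, form a ring around the snRNAs of the U1, U2, U4 and U5 particles, and LSm proteins form a similar ring on the U6 snRNA. The SF3a and SF3b complexes belong to the U2 snRNP and hold the branch point of the intron. PRPF proteins serve mainly in the U4/U6.U5 tri-snRNP and in the remodeling of the catalytic core. The SR proteins, encoded by Srsf genes, bind exons and help to choose splice sites. Megakaryocytes need splicing as every nucleated cell does, and the platelets they release inherit both mature and unspliced transcripts.

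Values are the log2 signals deposited by the authors, which have the same median on every array, 6.68 over all probes. Each gene was represented by its probe of highest mean signal. Genes with a mean signal of 7.5 or more were tested, 5428 in all, among them 39 of the 53. The signal of a probe depends on the probe as well as on its transcript, so levels are compared between samples and not between genes. The median signal of the tested genes itself differed between arrays. It was 9.43, 8.28, 8.96 and 9.03 in 5-HT replicates 1 to 4, against 8.99, 8.15 and 8.32 in saline replicates 1 to 3. One saline array thus lay among the higher arrays and one 5-HT array among the lower ones, and taken over the tested genes the log2 fold change had a median of 0.42. Fold changes of single genes are therefore to be read against this value, which is not repeated for each gene. In these bulk samples, fewer cells of a type and less RNA per cell cannot be told apart.

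CD41 itself, encoded by Itga2b, had log2 signals of 11.90, 9.36, 11.27 and 12.29 in the 5-HT samples, against 12.15, 9.17 and 8.86 in the saline samples. The marker used for the isolation was thus above the limit of 7.5 on every array, but at levels that parted the arrays in the same way as the median of the tested genes. Of 10 megakaryocyte markers, 8 were on the array under their symbol and 7 reached the limit of 7.5, with Itgb3 below it. Their summed signal was 13.39 to 15.24 on the log2 scale in 5-HT samples and 13.46 to 15.11 in saline samples. All 9 granulocyte markers were above the limit, and their sum was 17.67 to 17.89 in 5-HT samples and 17.39 to 17.75 in saline samples. That sum was the largest of the marker lists on every array, although sums over different probes do not measure shares of cells. The 2 measured eosinophil markers summed to 10.81 to 14.09 in 5-HT samples and 9.14 to 10.4 in saline samples, with Epx below the limit, and the groups did not overlap. The 4 measured erythroid markers summed to 11.74 to 13.79 in 5-HT samples and 13.02 to 13.998 in saline samples, and Klf1 and Epor were below the limit. The 3 B cell markers summed to 10.05 to 11.48 in 5-HT samples and 9.93 to 10.43 in saline samples, with Ms4a1 and Vpreb1 below the limit, and the 2 monocyte markers to 8.60 to 10.89 in 5-HT samples and 8.71 to 11.22 in saline samples. None of 4 T cell markers reached the limit. The samples thus carried signal of marrow cells other than megakaryocytes, and MKs stands below for the CD41-isolated samples as labelled. The part of these cell types in the splicing results was not tested.

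No spliceosome or SR protein gene passed an adjusted p under 0.05 after 5-HT infusion, and the 39 tested genes were spread on both sides of the fold change shared by all genes. Their median log2 fold change was 0.48, beside 0.42 over all tested genes, and 23 of the 39 lay above that of all genes. The count was 15 after quantile normalization and 16 after cyclic loess. It was 19 of 37 with a limit on signal of 8, 12 of 34 when the probes of a gene were averaged, and 17 without saline replicate 2. With no limit it was 35 of 53, counted against the median of all 19057 genes. The 39 genes also had a higher median signal than all tested genes, 9.76 beside 8.72. The log2 fold change was above 0 in 33 genes (84.6%), beside 91.3% of all tested genes. It ranged from 0.77 for Sf3b2 to -0.58 for Srsf10. By subfamily the median was 0.62 for 6 Prpf genes, 0.56 for 5 Sf3b genes, 0.50 for 2 Sf3a genes, 0.48 for 11 Lsm genes, 0.14 for 7 Snrp genes and 0.08 for 8 Srsf genes. All 13 tested Sf3a, Sf3b and Prpf genes lay above the median of all tested genes, as did 3 of the 7 Snrp genes and 1 of the 8 Srsf genes. The 13 depended on the processing: 8 lay above the median of all genes after quantile normalization and 9 after cyclic loess, 8 without saline replicate 2, and 5 of 12 when the probes of a gene were averaged. These are descriptions of a list, and the difference between subfamilies was not tested.

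**Figure D1:**
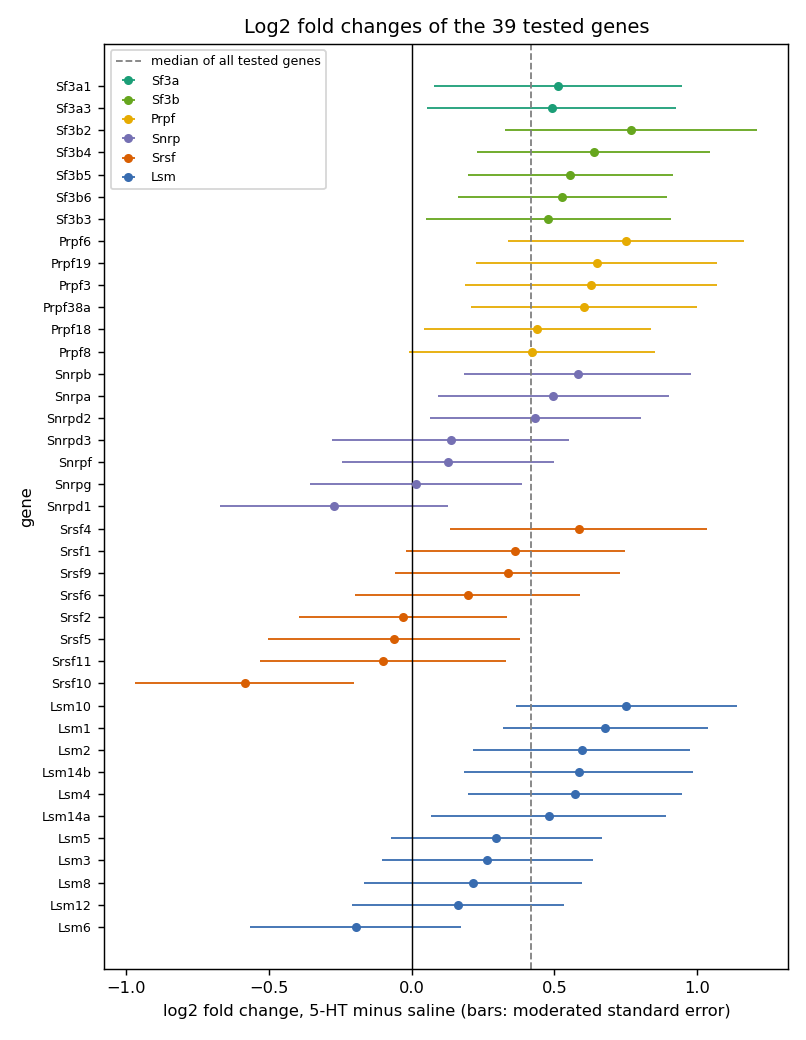
Log2 fold changes (5-HT minus saline, horizontal axis) of the 39 tested genes, grouped and colored by subfamily, with the moderated standard error (SE) from limma as bars; the dashed line is the median of all 5428 tested genes, 0.42. All Sf3a, Sf3b and Prpf genes lie to the right of the dashed line, whereas 7 of the 8 Srsf genes lie to its left.

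In limma, adjusted over all 5428 tested genes, 0 genes (0%) had an adjusted p under 0.05, and the adjusted p of the 39 genes was between 0.563 and 0.979. At the thresholds in the study's methods (unadjusted p under 0.05, fold change over 1.5), 0 of the 39 genes were higher and 0 lower after 5-HT, where 5.71% of all tested genes were higher and 0.0184% lower. The smallest unadjusted p among the 39 genes was 0.0639, and 0 of them had an unadjusted p under 0.05, against 311 of all tested genes. The groups did not overlap in 2 of the 39 genes, both with the 5-HT samples higher, and in 0 with them lower, where this held for 6.28% and 0.129% of all tested genes. Single arrays decided these counts, for the 39 genes and for the whole array. Without 5-HT replicate 2, 15 of the 39 (38.5%) were higher at the thresholds of the methods, beside 31.1% of all tested genes, and 14 (35.9%) were higher without overlap, beside 31.1%. Without saline replicate 1, 12 (30.8%) were higher at the thresholds, beside 27.0%, and 4 (10.3%) higher without overlap, beside 35.8%, while 1 (2.56%) was lower by either rule, beside 0.461% at the thresholds and 1.33% without overlap. With array weights, whose estimation stopped before convergence, 28 of the 39 (71.8%) and 60.4% of all tested genes had an adjusted p under 0.05.

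The proximal promoters of the genes at both ends of this range are shown so that the regulatory sequence can be seen beside the values. They are the 3 genes with the largest and 2 of those with the smallest log2 fold change that had an entry in the RefSeq table of promoters (GRCm38.p6), in which 45 of the 53 genes were found by gene identifier. Each sequence runs 5′ to 3′ on the strand of the gene, from 150 bases before the annotated start to 30 after it. Capitals mark matches, on either strand, to CCGGAAG (ETS factors), CCAAT (NF-Y), GGGCGG (SP1 and related factors), TATAAA (the TATA box) or AAGATGGC (YY1). The windows are chr19:5295428-5295607 (minus strand) for Sf3b2, chr4:126096503-126096682 (plus) for Lsm10, chr2:181601169-181601348 (plus) for Prpf6, chr8:78821123-78821302 (minus) for Lsm6 and chr4:135855921-135856100 (plus) for Srsf10.
Sf3b2: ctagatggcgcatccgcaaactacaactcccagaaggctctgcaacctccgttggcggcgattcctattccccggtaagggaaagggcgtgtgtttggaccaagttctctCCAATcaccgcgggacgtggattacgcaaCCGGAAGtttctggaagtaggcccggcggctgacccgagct
Lsm10: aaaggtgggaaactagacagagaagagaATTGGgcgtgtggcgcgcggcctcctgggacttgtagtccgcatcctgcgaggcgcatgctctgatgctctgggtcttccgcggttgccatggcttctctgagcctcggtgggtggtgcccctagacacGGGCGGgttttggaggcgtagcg
Prpf6: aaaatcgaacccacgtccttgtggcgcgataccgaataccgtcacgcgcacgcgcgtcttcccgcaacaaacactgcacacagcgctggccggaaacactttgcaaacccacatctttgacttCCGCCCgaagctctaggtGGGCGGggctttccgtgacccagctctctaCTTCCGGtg
Lsm6: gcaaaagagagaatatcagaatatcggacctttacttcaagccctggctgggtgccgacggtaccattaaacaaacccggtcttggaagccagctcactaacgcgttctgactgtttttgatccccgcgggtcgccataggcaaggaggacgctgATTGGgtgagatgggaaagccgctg
Srsf10: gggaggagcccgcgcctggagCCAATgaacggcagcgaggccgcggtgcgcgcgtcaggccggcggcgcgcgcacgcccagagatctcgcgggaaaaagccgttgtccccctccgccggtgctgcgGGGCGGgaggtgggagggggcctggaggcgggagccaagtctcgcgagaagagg

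The log2 fold changes of these genes were 0.77 for Sf3b2, 0.75 for Lsm10, 0.75 for Prpf6, -0.20 for Lsm6 and -0.58 for Srsf10. The low values of Lsm6 and Srsf10 held for the chosen probe alone. Other probes differed by 0.42 and 0.56 for Lsm6 and by -0.06 to 0.07 for Srsf10. A CCGGAAG match lay in the printed windows of Sf3b2 and Prpf6, and a CCAAT match in those of Sf3b2, Lsm10, Lsm6 and Srsf10. Over the whole windows of the table, from 250 bases before to 50 after the start, 16 of the 45 genes (35.6%) held CCGGAAG, beside 9.12% of 27025 promoters of all listed genes. GGGCGG was present in 31 (68.9%, beside 35.9%), CCAAT in 21 (46.7%, beside 37.9%), TATAAA in 4 (8.89%, beside 14.2%) and AAGATGGC in 2 (4.44%, beside 2.88%). The genes with CCGGAAG were Sf3a1, Sf3a2, Sf3a3, Sf3b2, Sf3b3, Sf3b6, Prpf4b, Prpf6, Prpf19, Snrpb2, Snrpe, Snrpg, Srsf4, Srsf5, Srsf11 and Lsm5. Of the 45 genes, 31 were among those tested. The 27025 promoters include genes that were not tested here, and no share over the tested genes is given. A match is a run of letters, and binding of no factor was measured.

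The SF3b complex grips the branch point of the intron, and its 5 tested subunits had log2 fold changes of 0.48 to 0.77. Sf3b5, a small subunit of the complex, had log2 signals of 12.08, 11.74, 11.89 and 12.02 in the 5-HT samples, against 11.31, 11.26 and 11.56 in the saline samples. The groups did not overlap, and Sf3b5 was 11.93 ± 0.15 (SD, n = 4) in 5-HT MKs and 11.38 ± 0.16 (SD, n = 3) in saline MKs, a log2 fold change of 0.56 (SE 0.36, adjusted p = 0.563 from limma). A further probe of Sf3b5 also had all 5-HT values but 1 above the saline values (11.05 in 5-HT replicate 2 against 11.09 in saline replicate 3), and a difference of means of 0.55. Saline replicate 1, the highest saline array for Sf3b2, Sf3b3 and Sf3b4, was low for Sf3b5.

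Sf3b2, which binds the branch region of the intron together with Sf3b4, had 11.30, 9.65, 11.39 and 10.92 in the 5-HT samples, against 10.80, 9.47 and 9.87 in the saline samples. Its log2 fold change of 0.77 (SE 0.44, adjusted p = 0.563 from limma) was the largest of the 39, although 5-HT replicate 2 lay below 2 of the 3 saline samples. Sf3b4 had 10.61, 9.49, 10.57 and 10.85 in the 5-HT samples, against 10.32, 9.19 and 9.72 in the saline samples, with the same array low in the 5-HT group and a log2 fold change of 0.64 (SE 0.41). Sf3b3, a large scaffold subunit, had 10.43, 9.21, 9.94 and 10.63 in the 5-HT samples, against 10.42, 8.92 and 9.38 in the saline samples, and a log2 fold change of 0.48 (SE 0.43). Sf3b6, which contacts the branch point adenosine region, had 8.04, 7.27, 7.79 and 7.85 in the 5-HT samples, against 7.10, 7.23 and 7.30 in the saline samples. Only 5-HT replicate 2 reached into the saline range, and the log2 fold change was 0.53 (SE 0.37). The mean signal of Sf3b6, 7.51, was just inside the limit for testing.

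The SF3a complex joins SF3b in the mature U2 snRNP. Sf3a1 had 10.37, 8.83, 9.82 and 9.98 in the 5-HT samples, against 10.15, 8.64 and 8.92 in the saline samples, a log2 fold change of 0.51 (SE 0.43). Sf3a3 had 10.98, 9.35, 10.44 and 10.70 in the 5-HT samples, against 10.74, 9.39 and 9.50 in the saline samples, a log2 fold change of 0.49 (SE 0.44, adjusted p = 0.580 from limma). In both subunits saline replicate 1 exceeded 5-HT replicates 3 and 4, and 5-HT replicate 2 did not reach saline replicate 3. Both differences were smaller than the SDs of the groups, which for Sf3a1 were 0.655 in 5-HT MKs and 0.803 in saline MKs and for Sf3a3 were 0.713 in 5-HT MKs and 0.750 in saline MKs.

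**Figure D2:**
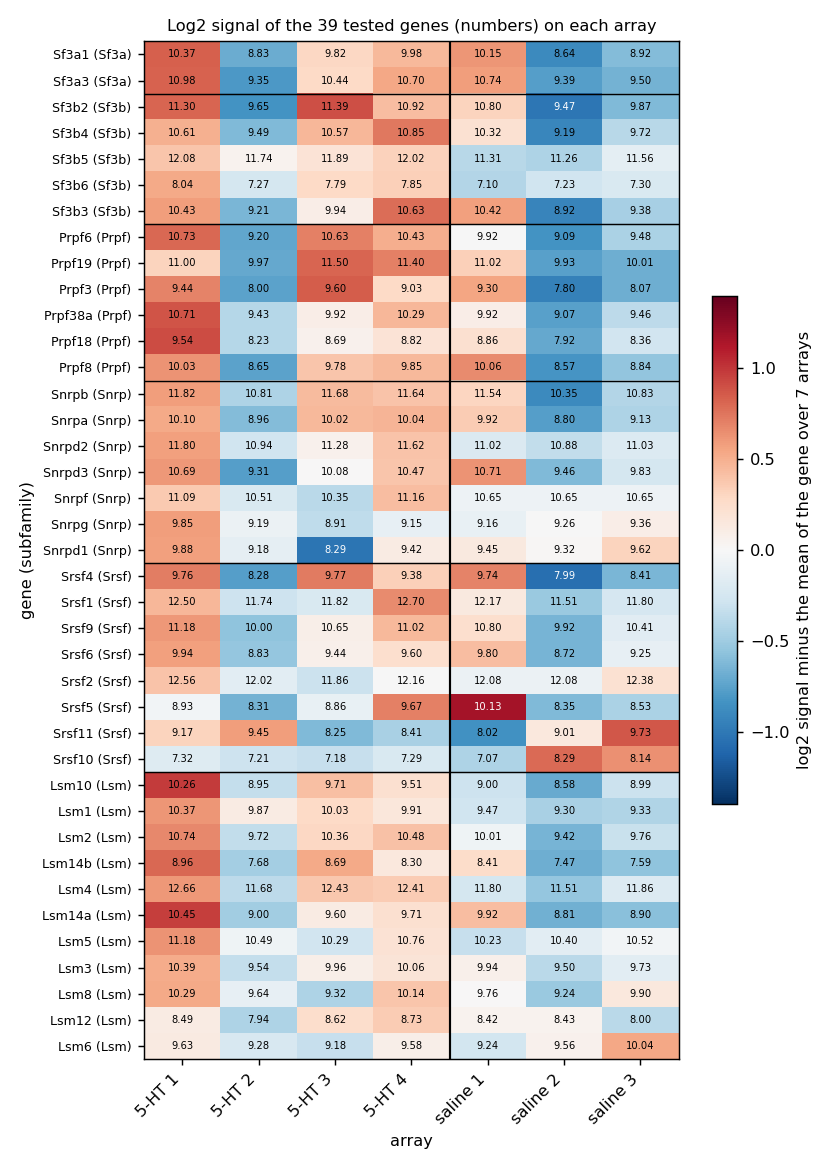
Log2 signal of the 39 tested genes (rows, ordered by subfamily and then by log2 fold change) on each of the 7 arrays (columns, 5-HT left of the line); the printed numbers are the signals and the color is the signal minus the mean of the gene over the arrays. Most Sf3a, Sf3b and Prpf rows are high in 5-HT replicates 1, 3 and 4 and in saline replicate 1. The chosen probes of Srsf10 and Srsf11 are instead lowest in saline replicate 1 and higher in saline replicates 2 and 3. Srsf11 is also high in 5-HT replicate 2, and other probes of these 2 genes differ.

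The PRPF proteins of the tri-snRNP and of the catalytic core had log2 fold changes of 0.42 to 0.75 in the 6 genes tested. Prpf6, which bridges the parts of the tri-snRNP, had 10.73, 9.20, 10.63 and 10.43 in the 5-HT samples, against 9.92, 9.09 and 9.48 in the saline samples. It averaged 10.25 ± 0.71 (SD, n = 4) in 5-HT MKs and 9.50 ± 0.42 (SD, n = 3) in saline MKs, a log2 fold change of 0.75 (SE 0.41, adjusted p = 0.563 from limma), and 5-HT replicate 2 alone lay within the saline range. Prpf19, the ubiquitin ligase of the complex that carries its name, had 11.0, 9.97, 11.50 and 11.40 in the 5-HT samples, against 11.02, 9.93 and 10.01 in the saline samples. Its log2 fold change was 0.65 (SE 0.42), and its 2 other probes above the limit differed in the same direction, by 0.53 and 0.38. Prpf8, the scaffold around the catalytic RNA of the spliceosome, had 10.03, 8.65, 9.78 and 9.85 in the 5-HT samples, against 10.06, 8.57 and 8.84 in the saline samples. Its highest signal was that of saline replicate 1, and its log2 fold change of 0.42 (SE 0.43) equaled the median of all tested genes to the second decimal. Prpf18, which acts in the second catalytic step, had 9.54, 8.23, 8.69 and 8.82 in the 5-HT samples, against 8.86, 7.92 and 8.36 in the saline samples, a log2 fold change of 0.44 (SE 0.40). The groups overlapped in each of these genes. The other tested Prpf genes were Prpf3 and Prpf38a, with 0.63 and 0.60.

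The Sm ring was divided. Snrpb, which encodes the Sm proteins B and B′, had 11.82, 10.81, 11.68 and 11.64 in the 5-HT samples, against 11.54, 10.35 and 10.83 in the saline samples, a log2 fold change of 0.58 (SE 0.40). Its further probe above the limit had a difference of 0.81. Snrpd1, which encodes Sm D1, had 9.88, 9.18, 8.29 and 9.42 in the 5-HT samples, against 9.45, 9.32 and 9.62 in the saline samples. It averaged 9.19 ± 0.67 (SD, n = 4) in 5-HT MKs and 9.46 ± 0.15 (SD, n = 3) in saline MKs, a log2 fold change of -0.27 (SE 0.40, adjusted p = 0.683 from limma). This value rested on 5-HT replicate 3, at 8.29, and was 0.03 without that array. The other probe of Snrpd1 also had its lowest signal in 5-HT replicate 3, at 8.14. Snrpg had 9.85, 9.19, 8.91 and 9.15 in the 5-HT samples, against 9.16, 9.26 and 9.36 in the saline samples, a log2 fold change of 0.02 (SE 0.37), and 3 of its 4 5-HT signals lay below those of saline replicates 2 and 3. Snrpf, with 0.13, and Snrpd3, with 0.14, lay between these genes and Snrpd2, with 0.43. Over the 6 tested genes of the Sm ring the median was 0.13.

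Snrpa is no ring protein but binds a stem-loop of the U1 snRNA. It had 10.10, 8.96, 10.02 and 10.04 in the 5-HT samples, against 9.92, 8.80 and 9.13 in the saline samples, a log2 fold change of 0.50 (SE 0.40, adjusted p = 0.566 from limma). 5-HT replicates 1, 3 and 4 were close together and replicate 2 stood far below them, inside the range of the saline samples.

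The SR proteins included the lowest fold change of the set. Srsf10, an SR-like splicing repressor, had 7.32, 7.21, 7.18 and 7.29 in the 5-HT samples, against 7.07, 8.29 and 8.14 in the saline samples. All 5-HT signals were close together, 2 saline signals were about 1 log2 unit above them and the third, of saline replicate 1, was below them. Srsf10 averaged 7.25 ± 0.07 (SD, n = 4) in 5-HT MKs and 7.83 ± 0.67 (SD, n = 3) in saline MKs, a log2 fold change of -0.58 (SE 0.38, adjusted p = 0.563 from limma). The chosen probe was at the limit for testing, with a mean of 7.5. The other 4 Srsf10 probes were below the limit, with differences of -0.06 to 0.07, so the value belongs to this probe alone. Srsf11, an SR-related protein, had 9.17, 9.45, 8.25 and 8.41 in the 5-HT samples, against 8.02, 9.01 and 9.73 in the saline samples. Its log2 fold change was -0.10 (SE 0.43), and its 2 other probes above the limit had differences of -0.35 and -0.33. The order of the arrays differed between these probes, since saline replicate 1 was the lowest saline array with the first probe, at 8.02, and the highest with the others, at 8.41 and 8.35.

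**Figure D3:**
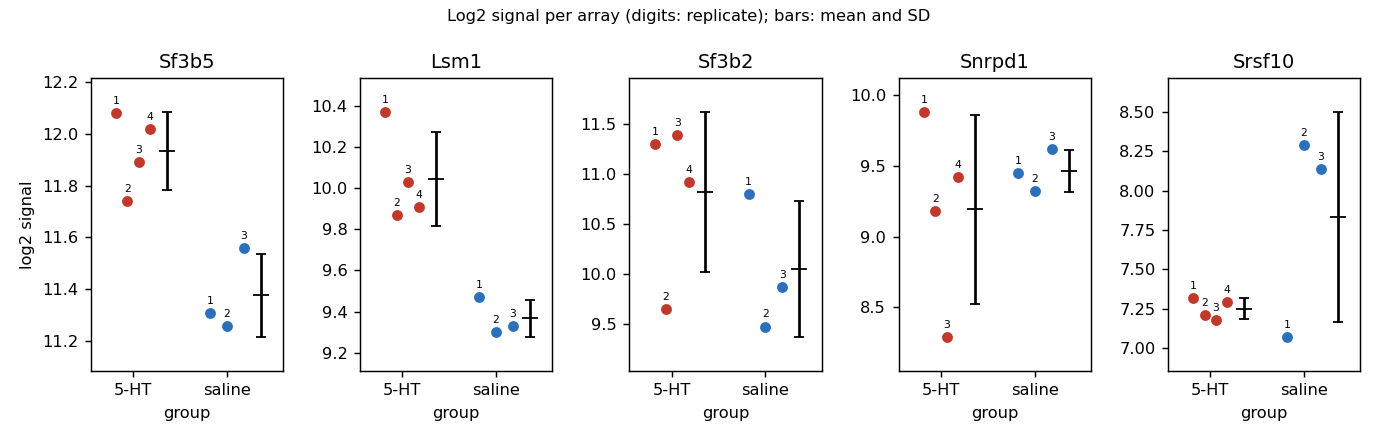
Log2 signal (vertical axis, not starting at 0) of 5 genes in each 5-HT and saline array, with replicate numbers beside the points and the mean and SD to their right. The groups do not overlap for Sf3b5 and Lsm1, overlap for Sf3b2, and in Snrpd1 and Srsf10 a single array lies far from the others of its group, at 8.29 and 7.07.

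Srsf1 and Srsf2 are founding SR proteins with broad roles in exon recognition. Srsf2 had 12.56, 12.02, 11.86 and 12.16 in the 5-HT samples, against 12.08, 12.08 and 12.38 in the saline samples, a log2 fold change of -0.03 (SE 0.36). Its second probe had a difference of 0.19, so the direction depended on the probe. Srsf1 had 12.50, 11.74, 11.82 and 12.70 in the 5-HT samples, against 12.17, 11.51 and 11.80 in the saline samples, a log2 fold change of 0.36 (SE 0.38) and 0.31 with its other probe above the limit. Srsf4 was the SR gene above the median of all tested genes. It had 9.76, 8.28, 9.77 and 9.38 in the 5-HT samples, against 9.74, 7.99 and 8.41 in the saline samples, a log2 fold change of 0.58 (SE 0.45), with the wide spread between arrays that Sf3a1 and Prpf8 also showed. The remaining tested genes were Srsf9, Srsf6 and Srsf5, with 0.34, 0.20 and -0.06. For Srsf5 the highest signal of the 7 arrays was that of saline replicate 1, at 10.13. Without that array its log2 fold change was 0.50, but the median of all tested genes also rose. In that fit 1 of the 8 Srsf genes lay above this median, and Srsf5 did not. With array weights, where 60.4% of all tested genes had an adjusted p under 0.05, Srsf5 was at 0.77 (adjusted p = 0.0260 from limma). There 4 of the 8 Srsf genes, Srsf5 among them, lay above the median of all tested genes of that fit. The other probe of Srsf5 above the limit had a difference of -0.21 as deposited.

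Among the LSm genes, those for the ring on the U6 snRNA, Lsm2 to Lsm8, are distinguished from Lsm1, which replaces Lsm8 in the cytoplasmic ring that promotes decapping and decay of mRNA. Lsm1 had 10.37, 9.87, 10.03 and 9.91 in the 5-HT samples, against 9.47, 9.30 and 9.33 in the saline samples. The groups did not overlap, and Lsm1 averaged 10.05 ± 0.23 (SD, n = 4) in 5-HT MKs and 9.37 ± 0.09 (SD, n = 3) in saline MKs. The log2 fold change was 0.68 (SE 0.36, adjusted p = 0.563 from limma). The lowest 5-HT signal, 9.87, was that of replicate 2, and the highest saline signal, 9.47, that of replicate 1. A further probe of Lsm1 above the limit had a difference of 0.28, with 7.73 in 5-HT replicates 2 and 3 and 7.83 in saline replicate 1, so that it overlapped. Lsm10, a ring protein of the U7 snRNP that processes histone transcripts, had 10.26, 8.95, 9.71 and 9.51 in the 5-HT samples, against 9.0, 8.58 and 8.99 in the saline samples. Only 5-HT replicate 2 lay within the saline range, and the log2 fold change was 0.75 (SE 0.39, adjusted p = 0.563 from limma).

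Lsm4 had 12.66, 11.68, 12.43 and 12.41 in the 5-HT samples, against 11.80, 11.51 and 11.86 in the saline samples, a log2 fold change of 0.57 (SE 0.37), with 5-HT replicate 2 again the array that overlapped. Lsm6 had 9.63, 9.28, 9.18 and 9.58 in the 5-HT samples, against 9.24, 9.56 and 10.04 in the saline samples, a log2 fold change of -0.20 (SE 0.37). Its other 2 probes had differences of 0.42 and 0.56, so the direction of Lsm6 depended on the probe. Lsm12 had 8.49, 7.94, 8.62 and 8.73 in the 5-HT samples, against 8.42, 8.43 and 8.0 in the saline samples, a log2 fold change of 0.16 (SE 0.37). Over the 6 genes of Lsm2 to Lsm8 that were measured, the median was 0.28, and Lsm3, Lsm5 and Lsm8 had 0.26, 0.30 and 0.21. Lsm2 had 0.60, and Lsm14a and Lsm14b, which act in cytoplasmic mRNA storage and repression, had 0.48 and 0.58.

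The arrays ordered most of these genes alike. The highest signal was that of 5-HT replicate 1 in 24 of the 39 genes, and the lowest that of saline replicate 2 in 26. The lowest of the 5-HT arrays was replicate 2 in 30 genes, the highest saline array was replicate 1 in 26 (ties included), and saline replicate 1 exceeded 5-HT replicate 2 in 31. The median of the 39 genes was 10.39, 9.31, 9.94 and 10.06 in the 5-HT samples and 9.94, 9.24 and 9.50 in the saline samples. It lay above the median of all tested genes of the same array by 0.96, 1.03, 0.98 and 1.03 in the 5-HT samples and by 0.95, 1.09 and 1.19 in the saline samples. For the Srsf genes this distance was 0.42, 0.86, 0.65 and 0.61 in the 5-HT samples and 0.98, 0.72 and 1.18 in the saline samples, so that 3 of the 4 5-HT arrays were below all saline arrays. For the Prpf genes it was 0.94, 0.65, 0.89 and 1.04 in the 5-HT samples and 0.93, 0.67 and 0.84 in the saline samples, and the groups overlapped.

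**Figure D4:**
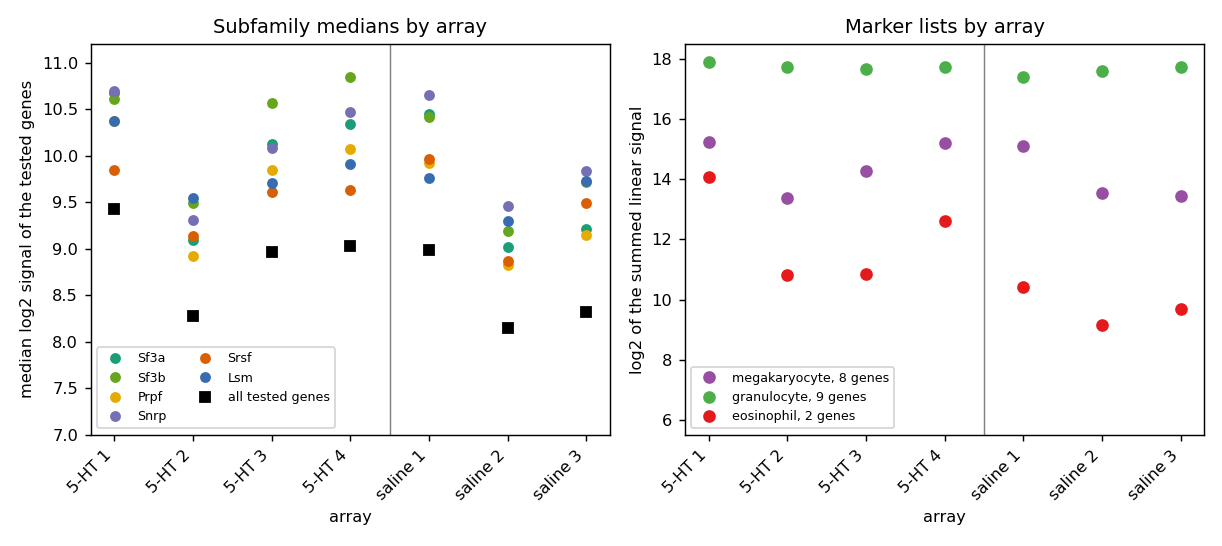
Left, median log2 signal of the tested genes of each subfamily (colored points) and of all tested genes (black squares) on each array; right, log2 of the summed linear signal of 3 marker lists on the same arrays. 5-HT replicate 2 and saline replicates 2 and 3 have the lowest medians of all tested genes (8.28, 8.15 and 8.32) and the lowest megakaryocyte sums (13.39, 13.53 and 13.46), and the granulocyte sum stays between 17.39 and 17.89.

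When the arrays were brought to one common median over the tested genes, the median of all tested genes became -0.02, and the direction of many genes depended on this choice. Of the 33 genes with a log2 fold change above 0, 15 were at or below 0 under at least 1 of 3 other scalings (this one, quantile normalization and cyclic loess) and 12 under all 3, among them Snrpd2, Snrpd3, Snrpf, Snrpg, Srsf1, Srsf6 and Srsf9. Under that scaling the medians were 0.18 for Prpf, 0.12 for Sf3b, 0.06 for Sf3a, 0.04 for Lsm, -0.30 for Snrp and -0.36 for Srsf genes. The log2 fold change was above 0 in 20 of the 39 genes, among them all 7 Sf3a and Sf3b genes, 4 of 6 Prpf genes, 6 of 11 Lsm genes, 2 of 7 Snrp genes and 1 of 8 Srsf genes. Of all tested genes, 52 were then higher and 129 lower at the thresholds of the study's methods. Srsf10, at -1.02, was the single gene of the set among them, and neither Sf3b5 (0.12) nor Lsm1 (0.24) kept apart the groups. After quantile normalization, which gives the arrays the same distribution, the medians were 0.15 for Prpf, 0.16 for Sf3b, 0.02 for Sf3a, 0.01 for Lsm, -0.34 for Snrp and -0.36 for Srsf genes, beside 0.08 for all tested genes.

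**Figure D5:**
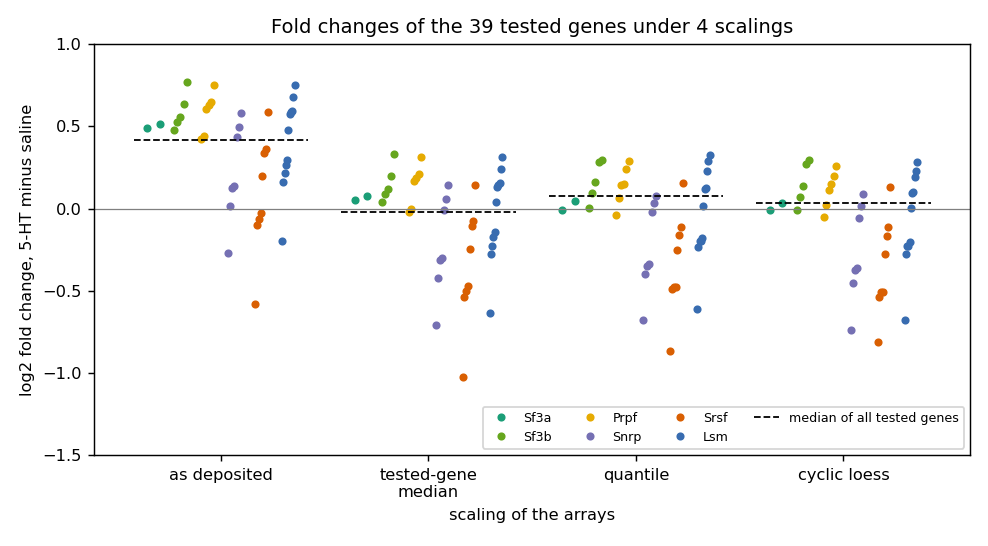
Log2 fold changes (vertical axis, 5-HT minus saline) of the 39 tested genes under 4 scalings of the arrays, colored by subfamily, with the median of all tested genes as a dashed line. The values move down together with the dashed line, from 0.42 as deposited to -0.02, 0.08 and 0.03, and the Srsf and Snrp medians are below the line under all 4.

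A further 109 splicing genes, listed by role, were on the array under their symbol, and 72 were tested. Their median log2 fold change was 0.41, and 35 of the 72 lay above the median of all tested genes. A single gene (1.39%) passed the thresholds of the study's methods, beside 5.71% of all tested genes higher and 0.0184% lower. Usp39, which is needed for the tri-snRNP to join the spliceosome, had 10.72, 9.86, 10.75 and 10.57 in the 5-HT samples, against 10.0, 9.18 and 9.47 in the saline samples. Its log2 fold change was 0.92 (SE 0.38, adjusted p = 0.563 from limma), and 5-HT replicate 2 lay below saline replicate 1 alone. Bud31, another spliceosome protein, named after its values were seen, was the single gene of the 72 (1.39%) whose groups did not overlap, beside 6.28% of all tested genes higher and 0.129% lower. It had 10.29, 9.69, 10.4 and 10.0 in the 5-HT samples, against 9.48, 9.38 and 9.63 in the saline samples. The lowest value of the 72 was that of Snrnp70, a U1 snRNP protein that SR proteins can contact, at -0.50 (SE 0.37), with 7.74, 7.54, 7.01 and 7.42 in the 5-HT samples, against 7.5, 8.12 and 8.15 in the saline samples.

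By role, 18 hnRNP genes, whose proteins often oppose SR proteins at splice sites, had a median of 0.15, from Ptbp1 at 0.69 to Hnrnpa2b1 at -0.41. For 29 other spliceosome proteins it was 0.46, for the 5 genes of the exon junction complex and RNA export 0.51 (Rnps1 0.64, Rbm8a 0.28), and for the 10 genes of snRNP assembly 0.41 (Smn1 0.70, Snupn 0.11). For the 6 SR kinases and SR-like proteins the median was 0.03, from Clk3 at 0.58 to Clk4 at -0.33, and for the 4 minor spliceosome genes 0.54 (Snrnp35 0.64, Snrnp25 0.48). The hnRNP genes and the SR kinases and SR-like proteins thus had medians below that of all tested genes, as the Srsf genes did. So did the Snrp genes (0.14) and Lsm2 to Lsm8 (0.28), while the snRNP assembly genes (0.41) were close to that median. A low median was therefore not particular to genes that act with or against SR proteins, and the differences between lists were not tested. In limma, 0 of the 72 genes had an adjusted p under 0.05, and 1 had an unadjusted p under 0.05, beside 5.73% of all tested genes.

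The other 14 of the 53 genes had mean signals of 6.59 to 7.38, below the limit, and were not compared. They were Sf3a2, Sf3b1, Prpf4, Prpf4b, Prpf31, Prpf38b, Prpf39, Prpf40b, Snrpb2, Snrpe, Srsf3, Srsf12, Lsm11 and Lsmem1. Lsmem1 matched the rule by its letters and encodes a membrane protein, not an LSm protein. The differences of their group means were between -0.20 and 0.24. Several encode proteins that every cell needs for splicing, such as Sf3b1, the largest subunit of SF3b, at 6.64 to 7.03 in 5-HT samples and 6.73 to 6.82 in saline samples. Snrpe, another ring protein, had 6.52 to 6.61 in 5-HT samples and 6.59 to 6.61 in saline samples. These signals are near the median of all probes, 6.68, so the probes gave no level that could be compared, which does not show that the transcripts were absent. Srsf3, at a mean of 7.38, was the gene nearest below the limit, and Srsf10, at 7.5, the one nearest above it.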

How the data were processed

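RNA of CD41-isolated MKs from 4 5-HT and 3 saline samples was hybridized to Illumina mouse WG-6 v2 BeadChips. The authors exported the signals from GenomeStudio, normalized them to the median and deposited log2 values of 45281 probes, whose median was 6.68 on every array. The background correction is not given in the sources used here. The 14 value columns that match no sample were not used. Of the probes, 34885 had 1 gene symbol, 18 several and 10378 none listed. The probe of highest mean signal stood for a gene, and genes with a mean of at least 7.5 were fitted with group alone in limma 3.58.1 under R 4.3.3 (5 residual and 18.9 prior degrees of freedom), with Benjamini-Hochberg adjustment over 5428 genes. The number of arrays limits the precision. The fit was also run on simulated data in which each gene varied on its own, so that run does not cover shifts of whole arrays such as those seen here. The 53 genes and the other lists were chosen with earlier results of these data known. Named in full were, per subfamily, the gene of highest mean signal and the 2 largest and 2 smallest fold changes (all where 5 or fewer were tested), and every gene past a call rule, 25 in all; from each further list, the largest and smallest fold change and any gene past a rule on p. Promoters came from RefSeq (GRCm38.p6), protein sequences were not used here, and figures were drawn with matplotlib 3.10.9 under Python 3.11.15. Alternatives were other scalings, limits, probe rules and variance models, a replicate block and samples left out.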

Additional observations from a re-analysis of the deposited data

Results flagged for a closer look

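The 5-HT groups of the 25 genes named in full were checked for a sample set far apart, and 1 gene was flagged. The saline groups were not checked. For Snrpa, the U1 snRNP protein, the gap between 5-HT replicate 2 and the nearest other 5-HT sample was 0.930 of the range of the group, which is past the critical value of Dixon's test for 4 samples. The signals were 10.10, 8.96, 10.02 and 10.04 in the 5-HT samples and 9.92, 8.80 and 9.13 in the saline samples. Relative to the median of the tested genes on the same array, Snrpa was at 0.67, 0.68, 1.06 and 1.01 in 5-HT replicates 1 to 4. Replicate 2 was then close to replicate 1 and did not stand apart. Chance alone sets off about 1 in 20 such groups.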

How the results depend on the processing

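Results are given as deposited above. At the thresholds of the study's methods, counts of all tested genes (higher, lower) were 65 and 92 after quantile normalization, 41 and 103 after cyclic loess and 52 and 129 with arrays brought to a common median of the tested genes (scaling). Groups without overlap (higher, lower) numbered 162 and 128 after cyclic loess, 171 and 153 after that scaling, and 259 and 87 after quantile normalization. Of the splicing genes, 1 did not overlap after quantile normalization (higher), 0 (higher) and 1 (lower) after cyclic loess and 0 (higher) after scaling, where 1 was lower at the thresholds. Their median log2 fold change was 0.0056, -0.0068 and 0.039 under quantile, cyclic loess and scaling, and its distance from that of all genes -0.070 and -0.039 under the first pair. Of the 25 genes named in full, directions turned under quantile, cyclic loess and scaling for Prpf8 (-0.040, -0.054, -0.019), Snrpg (-0.40, -0.45, -0.43), Srsf1 (-0.11, -0.11, -0.077) and Lsm12 (-0.20, -0.23, -0.28), for Sf3a3 under quantile and cyclic loess (-0.0065, -0.0068), for Sf3b3 under cyclic loess (-0.012), and Prpf18 came to 0 under scaling. Of the other tested splicing genes, Snrpd2, Snrpd3, Snrpf, Srsf6, Srsf9, Lsm3, Lsm5 and Lsm8 turned under all 3.

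With no limit on signal, 2 of the 53 genes were higher at the thresholds, beside 451 of 19057, and the distance was 0.23. Without overlap, 2 of the 53 were higher and 1 lower, beside 653 higher and 367 lower of all genes. At the thresholds 3 genes were lower in all. With a limit of 8, 2 genes were lower without overlap. With the mean of a gene's probes, 1 of 34 splicing genes was higher at the thresholds and 1 did not overlap, beside 322 and 296 of 4188, the distance was -0.079, 0 genes were lower at the thresholds and 2 without overlap, and Snrpg (-0.055), Srsf2 (0.035) and Lsm6 (0.26) turned. With trend and robust settings, 3 genes passed the adjusted p and 2 were lower. With array weights, 3281 genes and 28 splicing genes passed the adjusted p, 3237 and 25 were higher and 108 and 2 lower, and Snrpg was -0.13 and Srsf5 0.77 (adjusted p = 0.0260).

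The deviations of same-numbered samples correlated at r = 0.145, 0.684 and -0.247 for replicates 1, 2 and 3, not above 0.1 in every pair, so numbers were not taken as pairs. With the replicate block, which leaves 5-HT replicate 4 out of the comparison, 45 genes and 0 splicing genes passed the adjusted p, 1226 and 6 were higher, 15 genes were lower, and Srsf11 was 0.037 and Snrpf 0. Leaving out 1 sample at a time gave 0 to 77 genes past the adjusted p, 49 to 1689 higher and 0 to 32 lower, 354 to 1941 higher and 7 to 105 lower without overlap. For the splicing genes it gave 0 to 15 higher and 0 to 1 lower, 2 to 14 higher and 0 to 1 lower without overlap, and a distance of -0.033 to 0.080. Lsm6 ran from -0.38 to 0.018, Snrpd1 from -0.50 to 0.030, Snrpg from -0.18 to 0.14, Srsf11 from -0.55 to 0.31 and Srsf2 from -0.17 to 0.070. Of the other splicing genes, Snrpd3, Snrpf, Srsf5 and Srsf6 turned or came to 0 without at least 1 sample. Without both saline replicate 1 and 5-HT replicate 2, chosen for standing apart so that the counts are no support, 3071 genes and 23 splicing genes passed the adjusted p, 3498 and 25 were higher, 45 and 1 lower, 4068 and 30 higher and 74 and 1 lower without overlap, the distance was -0.038, Snrpg was -0.0067 and Srsf5 0.71. Where a count moved or a direction turned, the cause was not tested. Probes near the median of all probes, such as those of the 14 genes below the limit, gave no usable difference.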
